A study of Mus musculus with 24 samples.

Results

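Chemokines are small secreted proteins that draw leukocytes into tissue, and their receptors are proteins of the cell surface that signal through heterotrimeric G proteins. All rows of the array annotated as a Ccl, Cxcl, Ccr or Cxcr gene with a number, or as Cx3cl1 or Cx3cr1, were taken from the table, in any case of letters. This gave 54 of 26423 rows, which stood for 48 of 17742 genes, 30 of them ligands and 18 receptors. One row annotated as Cxcr7 is now named Ackr3, and 6 genes had 2 rows each. The choice used the symbols and no measured value.

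The tibialis anterior muscle of mice 6 months old was compared between 4 knockout animals (Myf6 cre/+; Hira flox/-) and 4 control animals (Myf6 cre/+; Hira flox/+), both on a mixed C57BL6/J and 129S1/SvImJ background. Both groups carried the Cre, which is expressed from the Myf6 locus of muscle fibres, so control fibres should, by genotype, retain 1 intact copy of Hira, a chaperone of the histone variant H3.3. In knockout animals every cell carried the null copy, leukocytes and vessels included. With 3 hybridisations per animal there were 24 arrays of linear probe intensities, and the animal was the replicate.

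Most chemokines bind to a receptor of the same letter class, and the classes are named for the spacing of cysteines in the ligand. In muscle, CCL2 and its receptor CCR2 are known for bringing monocytes to injured fibres, CX3CR1 marks monocytes and many tissue macrophages, and CXCL12 is made by stromal and vessel cells. Whole muscle was measured, so fewer cells of a type and less RNA per cell cannot be told apart.

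Of the 8 fibre-defining genes measured of 13 listed, Acta1 and Ckm among them, none passed the test between the groups (limma; 1 had an unadjusted p under 0.05), and their summed intensity was 1953769 to 2734971 in knockout animals and 2312030 to 2956503 in control animals. The Hira probe gave 397, 633, 368 and 454 in knockout animals 1 to 4, against 462, 554, 485 and 509 in control animals 1 to 4. Knockout animal 2 lay above every control animal and the other 3 below them (log2 fold change -0.15; limma, adjusted p = 0.623). Whether this probe lies within the deleted stretch is unknown here, and it checks no genotype. The low end of the arrays differed, with a 5th percentile of -2.35 to 125, and the highest low ends were those of 1 array each of control animals 3 and 4.

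Promoters are shown for 5 members, since they set the classical inflammatory ligands beside a pair of members whose groups did not overlap. The windows run from 250 bases before to 50 after the annotated start and come from RefSeq, assembly GRCm38.p6, whose table held 34 of the 48 genes. Cxcl1 (chr5:90890995-90891294, plus strand), Cxcl2 (chr5:90903649-90903948, plus strand) and Cxcl10 (chr5:92348840-92349139, minus strand) hold matches to the NF-kB motif. Cx3cr1 (chr9:120068247-120068546, minus strand) and Cxcl12 (chr6:117168285-117168584, plus strand) hold no match to any of the 4 motifs searched. Cxcl14, whose groups did not overlap either, is not shown. Its window holds matches to the gamma-activated site and to the interferon-stimulated response element. Capitals mark matches, and in Cxcl10 the first run in capitals is a match to the interferon-stimulated response element.
Cxcl1: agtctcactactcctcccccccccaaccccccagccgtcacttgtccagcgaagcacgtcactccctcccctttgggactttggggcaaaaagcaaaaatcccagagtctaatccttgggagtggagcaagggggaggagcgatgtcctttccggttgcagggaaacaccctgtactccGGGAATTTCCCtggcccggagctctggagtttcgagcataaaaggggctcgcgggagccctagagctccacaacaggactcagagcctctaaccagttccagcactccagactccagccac
Cxcl2: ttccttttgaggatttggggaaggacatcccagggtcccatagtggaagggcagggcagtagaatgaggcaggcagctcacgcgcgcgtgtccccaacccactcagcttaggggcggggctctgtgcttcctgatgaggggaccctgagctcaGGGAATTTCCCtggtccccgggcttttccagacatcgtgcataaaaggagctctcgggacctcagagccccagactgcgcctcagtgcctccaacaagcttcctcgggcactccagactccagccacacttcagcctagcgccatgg
Cxcl10: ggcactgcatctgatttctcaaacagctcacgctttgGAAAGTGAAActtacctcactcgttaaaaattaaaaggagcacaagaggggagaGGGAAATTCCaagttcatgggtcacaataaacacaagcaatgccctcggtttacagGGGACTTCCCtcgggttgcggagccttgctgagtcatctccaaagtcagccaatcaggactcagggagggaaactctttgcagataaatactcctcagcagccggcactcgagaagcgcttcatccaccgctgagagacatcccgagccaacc
Cx3cr1: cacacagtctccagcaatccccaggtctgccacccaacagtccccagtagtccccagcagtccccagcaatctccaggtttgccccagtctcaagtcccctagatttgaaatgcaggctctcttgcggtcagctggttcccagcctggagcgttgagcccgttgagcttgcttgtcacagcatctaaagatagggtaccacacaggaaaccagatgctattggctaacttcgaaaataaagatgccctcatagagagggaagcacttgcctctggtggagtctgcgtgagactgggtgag
Cxcl12: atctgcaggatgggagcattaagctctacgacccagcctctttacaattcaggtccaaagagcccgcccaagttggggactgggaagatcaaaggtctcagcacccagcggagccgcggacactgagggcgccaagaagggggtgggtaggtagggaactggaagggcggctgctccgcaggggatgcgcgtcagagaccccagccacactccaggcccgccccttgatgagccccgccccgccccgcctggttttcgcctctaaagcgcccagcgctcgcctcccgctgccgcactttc

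Searched on both strands of these windows were 4 motifs, the NF-kB motif, the gamma-activated site TTCNNNGAA, the interferon-stimulated response element and the TATA box TATAAA, and in Cxcl1 and Cxcl2 the NF-kB matches of the strands overlap. A gene was counted where any of its windows held the motif, and Ccl25 and Ccr6 have 2 windows each. The NF-kB motif was found for 8 of the 34 member genes, or 23.5%, and for 5.14% of the 27025 genes of the table. The TATA box was found for 10 member genes (29.4%, against 15.7% of all genes), the gamma-activated site for 4 (11.8%, against 9.55%) and the response element for 2 (5.88%, against 3.99%). A match is a run of letters and not a measured site. The 8 genes with an NF-kB match were Ccl20, Ccl9, Ccr3, Ccr6, Cxcl1, Cxcl2, Cxcl3 and Cxcl10, and 4 of them were dim in both groups and 2 in 1 group. None of the 8 passed the test between the groups (limma), also with no adjustment of p, and the 2 that were above background in both groups, Cxcl1 and Cxcl2, had log2 fold changes of 0.08 and -0.09. Ccl5, Ccl11 and Cxcl11, which passed, had no window, and Cx3cr1 alone of the members that passed was searched. Whether members with the motif differ less often was thus not tested.

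Many chemokine and receptor rows gave signals near the low end of the array. Intensities over 125, which is the highest 5th percentile found on an array, counted as above background. By the mean of the animals, 39 of the 54 rows (72.2%) were above it in knockout muscle and 40 (74.1%) in control muscle, against 78.7% and 79.1% of all rows. On all 24 arrays 32 member rows (59.3%) were above it, against 68.7% of all rows, and on no array 5 (9.26%), against 4.72%. An intensity over 1000 was reached by 11 member rows (20.4%), against 41.9% of all rows. With a level of 250 in place of 125, 26 rows lay above it in knockout and 24 in control muscle.

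The number of member rows above background was 40, 38, 40 and 40 in knockout animals 1 to 4, against 38, 36, 41 and 41 in control animals 1 to 4. The groups thus overlapped. Single arrays gave 34 to 42 rows in knockout animals and 34 to 49 in control animals, and the 49 and 47 came from the pair of control arrays with the highest low end.

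**Figure D1:**
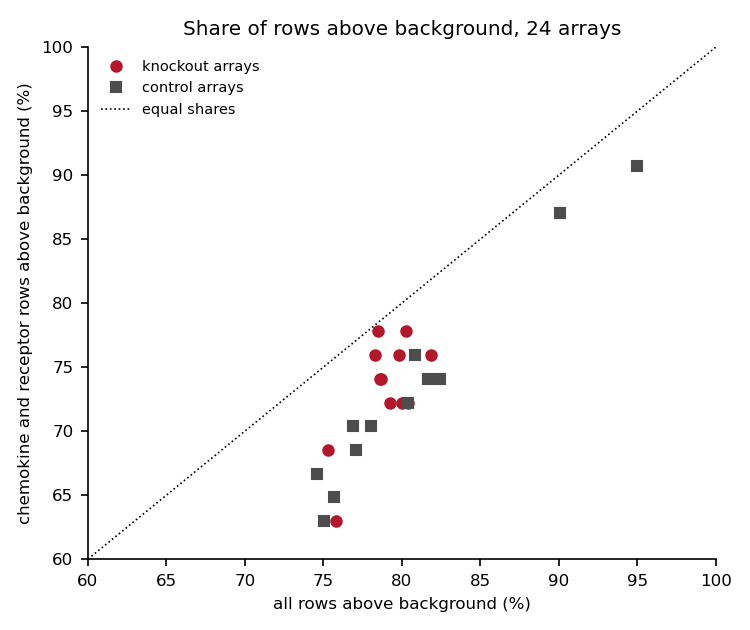
Share of the 54 chemokine and receptor rows above an intensity of 125 (vertical axis, %) against the share of all 26423 rows above it (horizontal axis, %), 1 point per array, with knockout arrays as circles and control arrays as squares. The points lie below the dotted line of equal shares, and the control arrays at 94.9% and 90.1% of all rows stand apart.

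By gene, 35 of the 48 were above background in both groups, against 83.7% of all genes, 10 in neither and 3 in 1 group. Above it in both were 11 of 16 CC ligands, 11 of 13 CXC ligands and the CX3C ligand Cx3cl1. So were 6 of 10 CC receptors, 5 of 7 CXC receptors and the receptor Cx3cr1. The 10 below it in both were the ligands Ccl20, Ccl26, Ccl28 and Cxcl10 and the receptors Ccr3, Ccr4, Ccr6, Ccr8, Cxcr2 and Cxcr6, and no direction is given for them. Just outside the level lay the second row of Ccl25, with a mean of 124.5 in knockout and 121.7 in control muscle, and just inside it in control muscle alone lay Cxcl3 (124.9 against 131.5) and Ccl9 (111.7 against 126.2).

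Between knockout and control muscle 4 of the 48 genes passed the test, Cx3cr1, Cxcl11 and Ccl5 higher and Ccl11 lower in knockout muscle. The question was which transcripts differ once Hira is lost from fibres. The count of 4, or 8.33%, stands beside 9.28% of all 17742 genes (limma on 8 animal means, Benjamini-Hochberg over all genes, adjusted p under 0.05). Of all genes 4.28% passed as higher and 5.01% as lower. Of the 35 members above background in both groups the 4 were 11.4%, against 10.5% of all such genes. The median log2 fold change of the 35 members above background in both groups was -0.01, against -0.04 over all such genes, and 17 of the 35 lay above 0. Which members passed changed when 1 animal was dropped. Dropping control animal 2 left 4, with Cxcl13 in place of Cxcl11, beside 9.54% of all genes. With control animal 3 dropped, the 3 were Cx3cr1, Cxcl12 and Cxcr5 (6.83%), and with control animal 4 the 2 were Ccl2 and Cx3cr1 (6.77%). Only Ccl1 passed once control animal 1 was dropped (5.99%), so none of the 4 named above did. Dropping knockout animal 1 left Ccl11, Cx3cr1 and Cxcl12 (7.47%). Cx3cr1 and Cxcl11 stayed when knockout animal 2 or 4 was dropped (6.98% and 6.85%), and Ccl5 and Cx3cr1 when animal 3 was (5.33%).

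The ranges of the groups were apart in 9 genes (18.75%), where 17.5% of all genes had no overlap. Of the 9, 5 were higher in knockout muscle (7.24% of all genes) and 4 lower (10.2%). All 9 were above background in both groups, where they made up 25.7% of the 35 members, against 20.1% of all such genes. For each of the 9 an exact two-sided permutation test over animals gave p = 0.0286, the smallest p possible with 4 against 4. Groups that do not overlap always give this p, so it adds nothing to the lack of overlap.

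**Figure D2:**
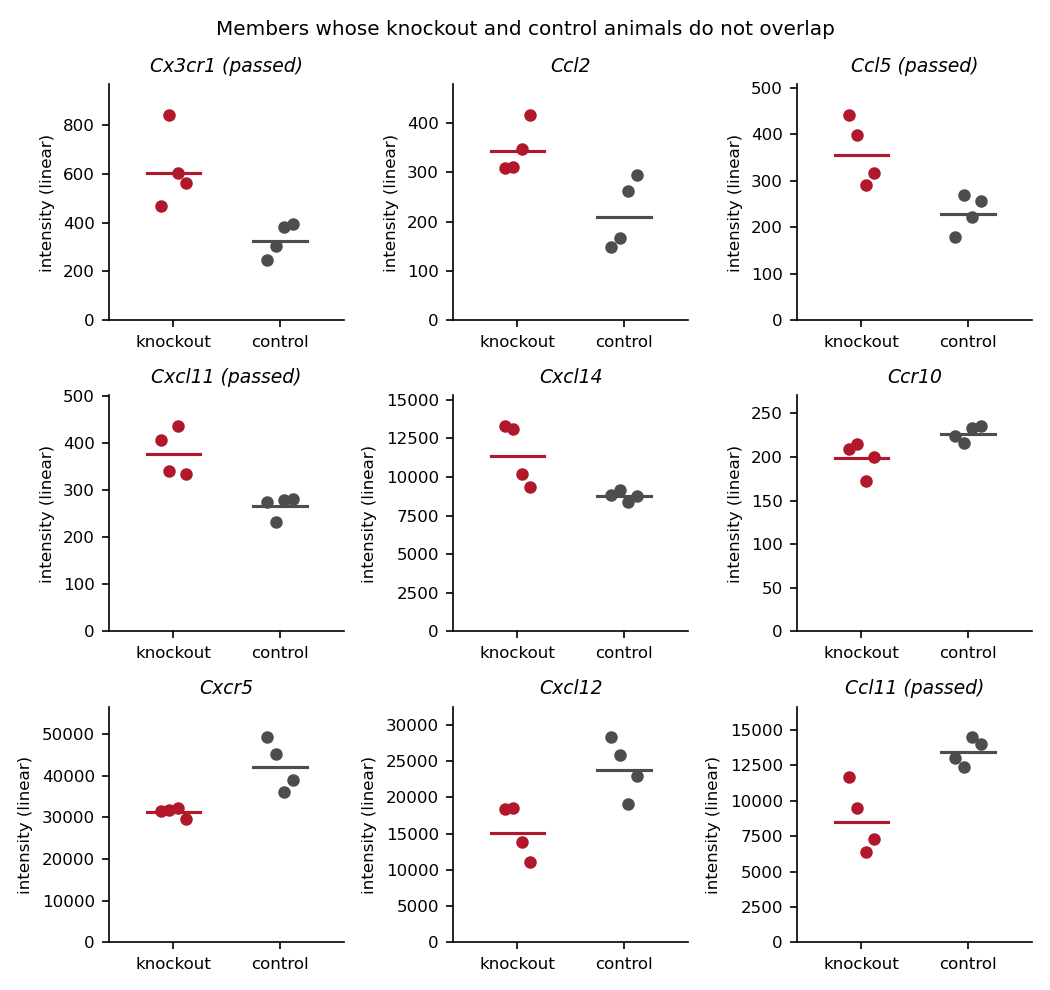
Linear intensity (vertical axis, from 0) of the 9 members whose groups did not overlap, with 1 point per animal, knockout left of control, and a bar at the group mean taken on the log2 scale. "Passed" marks an adjusted p under 0.05, and the points of the groups are apart in each panel.

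Cx3cr1, the receptor of fractalkine, had the largest rise among the members that passed. Its intensity was 467, 839, 602 and 563 in knockout animals 1 to 4, against 245, 306, 380 and 392 in control animals 1 to 4. Knockout animal 2 was highest and control animal 1 lowest, and the groups did not overlap. The level was 1.86-fold higher in knockout muscle (log2 fold change 0.89 ± 0.20, SE, n = 4 each; 95% interval 0.45 to 1.33; limma, adjusted p = 0.0184). Without control animal 1 the adjusted p was 0.0572 (limma, log2 fold change 0.76), and with a floor at the background level 0.0503. The animals carry numbers of 2 series, with 2 animals of each group in each, and the log2 fold change was 1.19 within the first and 0.59 within the second.

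Cx3cl1, which encodes fractalkine, the ligand of CX3CR1, gave 856, 772, 1024 and 833 in knockout animals 1 to 4, against 1023, 886, 856 and 788 in control animals 1 to 4. The groups overlapped over nearly their whole range (log2 fold change -0.03, 95% interval -0.32 to 0.26; limma, adjusted p = 0.916). Of 16 macrophage markers measured of 18 listed, none passed as higher and 1 as lower, Cd163, a scavenger receptor of resident macrophages (log2 fold change -0.93; limma, adjusted p = 0.0490). The median of that list was 0.27, against -0.07 over all genes, and its summed intensity was 26640 to 90282 in knockout animals and 24143 to 44208 in control animals. The part of these cells in the Cx3cr1 difference was not tested.

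Ccl5, a ligand of CCR1 and CCR3 made by T cells among others, rose in knockout muscle. It gave 440, 399, 290 and 316 in knockout animals 1 to 4, against 180, 270, 222 and 256 in control animals 1 to 4. The lowest knockout animal, animal 3, lay just above the highest control animal. The level was 1.55-fold higher (log2 fold change 0.63 ± 0.17, SE, n = 4 each; limma, adjusted p = 0.0418). The log2 fold change was 0.93 within the first series of animal numbers and 0.34 within the second. It no longer passed without knockout animal 1, 2 or 4 (0.53, 0.58 and 0.69 on the log2 scale; limma, adjusted p = 0.102, 0.0992 and 0.0544) or without control animal 1, 3 or 4 (0.52, 0.62 and 0.69; adjusted p = 0.112, 0.0907 and 0.0563).

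Beside it, 1 of 9 T cell markers measured was higher and none lower, Cd3e, a chain of the T cell receptor complex. Cd3e gave 1492, 1604, 1594 and 1711 in knockout animals, against 1111, 1115, 964 and 1040 in control animals (log2 fold change 0.60; limma, adjusted p = 0.00629). The other markers of that list did not pass, among them Cd3g (0.24) and Cd2 (-0.42), and the list's median was 0.06. The part of T cells in the Ccl5 difference was not tested.

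Cxcl11 belongs with Cxcl9 and Cxcl10 to the interferon-induced ligands of CXCR3. RefSeq calls the mouse locus a transcribed pseudogene. Its intensity was 405, 340, 435 and 334 in knockout animals 1 to 4, against 274, 231, 278 and 280 in control animals 1 to 4. All 4 knockout animals were higher, by 1.42-fold on average (log2 fold change 0.51 ± 0.13, SE, n = 4 each; limma, adjusted p = 0.0330). The log2 fold change was 0.56 within the first series of animal numbers and 0.45 within the second. It no longer passed without knockout animal 1 or 3 (0.47 and 0.44; limma, adjusted p = 0.0838 and 0.106) or without any 1 of the control animals (0.44 to 0.53; adjusted p between 0.0572 and 0.0671).

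The other members of that axis did not pass. Cxcl9 gave 1196, 832, 1139 and 1006 in knockout animals 1 to 4, against 1150, 1251, 1138 and 912 in control animals 1 to 4 (log2 fold change -0.10; limma, adjusted p = 0.729). Its groups overlapped, as did those of its second row (-0.35). Cxcl10 was dim in both groups, with at most 39.9 in knockout animals and 52.5 in control animals. Cxcr3, their receptor on activated T cells, gave 200, 144, 185 and 127 in knockout animals, against 108, 96.8, 148 and 194 in control animals (0.29; limma, adjusted p = 0.453). Of 12 other genes of the interferon gamma axis, none passed in either direction (limma; 0 at an unadjusted p under 0.05), with a median of -0.02.

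Ccl11, or eotaxin, which draws eosinophils through CCR3, was the 1 member that passed as lower in knockout muscle. Its intensity was 11665, 9469, 6366 and 7323 in knockout animals 1 to 4, against 13041, 12371, 14483 and 13974 in control animals 1 to 4. Knockout animals 3 and 4 were lowest, and the control animals lay close together. The level was 1.59-fold lower in knockout muscle (log2 fold change -0.67 ± 0.18, SE, n = 4 each; 95% interval -1.06 to -0.28; limma, adjusted p = 0.0387). The log2 fold change was -0.27 within the first series of animal numbers and -1.06 within the second. It no longer passed without knockout animal 2, 3 or 4 (-0.72, -0.53 and -0.60; limma, adjusted p = 0.0573, 0.103 and 0.0915) or without control animal 1, 3 or 4 (-0.68, -0.63 and -0.65; adjusted p = 0.0859, 0.0918 and 0.0818).

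The other eotaxin-like ligand above background, Ccl24, gave 366, 358, 374 and 394 in knockout animals, against 383, 445, 453 and 457 in control animals (log2 fold change -0.22; limma, adjusted p = 0.252). Only control animal 1 lay within the range of the knockout animals. Ccr3, the receptor of both, was dim in each group. Of 5 mast cell and eosinophil markers measured of 7 listed, none passed (limma; 3 at an unadjusted p under 0.05), with a median of -0.35. Of 9 fibroblast markers none passed (4 at an unadjusted p under 0.05), with a median of 0.02, and the sums were 140488 to 260985 in knockout animals and 159191 to 237994 in control animals.

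A further 5 members had groups that did not overlap but missed the threshold. When the fit was blocked on animal-number series, 3 of them passed (limma, adjusted p = 0.00955 for Cxcl12, 0.0114 for Ccl2 and 0.0329 for Cxcr5), and Cxcl14 and Ccr10 did not (0.0618 and 0.280). Within the first and the second series the log2 fold changes were -0.55 and -0.76 for Cxcl12, 0.98 and 0.45 for Ccl2, -0.58 and -0.28 for Cxcr5, 0.55 and 0.19 for Cxcl14, and -0.05 and -0.34 for Ccr10. Cxcl12, the ligand of CXCR4 and ACKR3 that retains stem and immune cells in tissue, gave 18473, 18562, 13821 and 11038 in knockout animals 1 to 4, against 28304, 25867, 19035 and 22905 in control animals 1 to 4. Knockout animals 3 and 4 were lowest, and the gap between the groups lay between 18562 and 19035 (log2 fold change -0.65, 95% interval -1.07 to -0.24; limma, adjusted p = 0.0544). Cxcr5, known as the receptor by which B cells follow CXCL13, gave 31431, 31806, 32283 and 29601 in knockout animals, against 49237, 45229, 36150 and 39092 in control animals (-0.43; limma, adjusted p = 0.0537). The knockout animals lay within a narrow range below every control animal. Cxcr5 was measured by 1 row, at percentile 96.9 of all genes by mean, and what its probe detects was not checked.

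Ccl2 gave 308, 312, 348 and 415 in knockout animals 1 to 4, against 149, 167, 261 and 295 in control animals 1 to 4 (0.72, 95% interval 0.24 to 1.19; limma, adjusted p = 0.0632). Control animals 1 and 2 were lowest, and the groups lay close at 308 and 295. Cxcl14, a ligand made by epithelia among other tissues, gave 13282, 13101, 10186 and 9370 in knockout animals, against 8816, 9149, 8369 and 8758 in control animals (0.37; limma, adjusted p = 0.119). Its second row gave 0.00, so the rows of this gene disagree. Ccr10, a receptor of CCL28, gave 209, 215, 172 and 200 in knockout animals, against 224, 216, 233 and 235 in control animals (-0.19; limma, adjusted p = 0.321), with the groups apart by less than 1 unit of intensity.

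Beside the lower values of Cxcl12 and Ccl11, some markers of vessels were lower in knockout muscle. Of 13 endothelial markers 3 passed, all lower (Gpihbp1, Icam2 and Emcn, with log2 fold changes of -1.07, -0.80 and -0.59; limma, adjusted p = 0.00262, 0.0102 and 0.0346), and the list's median was -0.43. The summed endothelial intensity was 82091 to 113716 in knockout animals and 122612 to 154449 in control animals, with no overlap. Of 7 smooth muscle and pericyte markers 3 passed, all lower (Acta2, Tagln and Rgs5), with a median of -0.52. The part of these cells in the Cxcl12 and Ccl11 differences was not tested. Beside Cxcr5, 1 of 5 B cell markers passed as lower (Cd79b, -0.48; limma, adjusted p = 0.0389), and the list's median was -0.32. The summed B cell intensity was 8207 to 8704 in knockout animals and 9634 to 10525 in control animals, with no overlap. Ms4a1, a defining B cell marker, was the 1 marker of the list dim in both groups. Cd79a, Cd22 and Pax5 were above background in both (-0.36, -0.32 and 0.05) and did not pass. The part of B cells in the Cxcr5 difference was not tested.

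**Figure D3:**
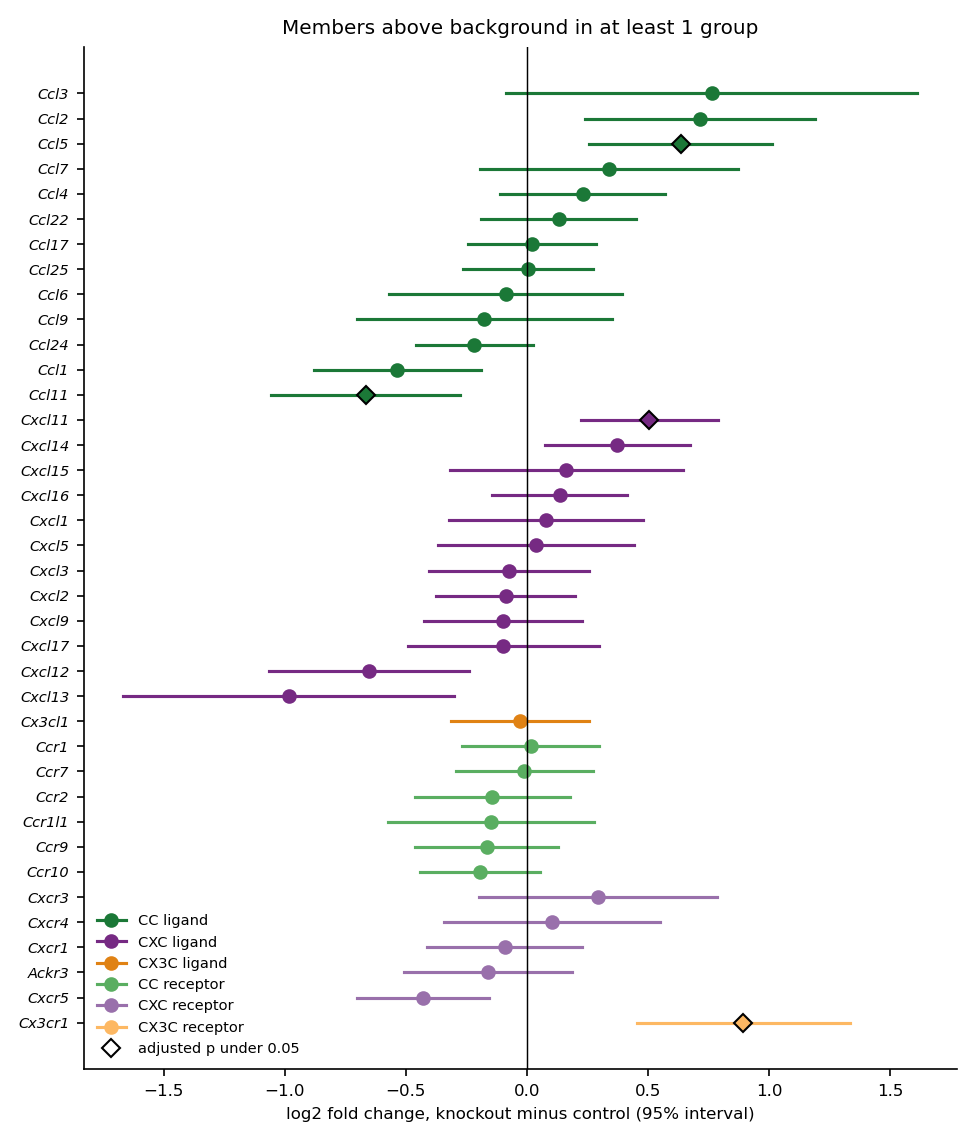
Log2 fold change of knockout minus control (horizontal axis) with its 95% interval for the 38 members above background in at least 1 group, coloured by class and ordered by size within it. Diamonds mark the 4 that passed, from -0.67 for Ccl11 to 0.89 for Cx3cr1, and most other intervals include 0.

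Receptors of these ligands did not pass apart from Cx3cr1. Cxcr4 gave 216, 277, 276 and 247 in knockout animals 1 to 4, against 195, 283, 168 and 331 in control animals 1 to 4 (log2 fold change 0.10; limma, adjusted p = 0.793). The control animals enclosed all knockout animals. Ackr3, which takes up CXCL12 and CXCL11, averaged 433 in knockout and 484 in control muscle (-0.16; limma, adjusted p = 0.569). Ccr2, the receptor by which monocytes follow CCL2, gave 1397, 1356, 1251 and 933 in knockout animals, against 1499, 1218, 1356 and 1328 in control animals (-0.14; limma, adjusted p = 0.580). Its second row gave 0.38 and thus the other sign. Over the 8 animals Ccl2 and Ccr2 correlated at -0.54, Cxcl12 and Cxcr4 at -0.07, and Cx3cl1 and Cx3cr1 at -0.43 (Pearson), as a description of points that share arrays and groups.

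Among the brightest members, Cxcl16, a membrane-bound ligand of CXCR6, gave 6198, 5637, 6578 and 6384 in knockout animals 1 to 4, against 5029, 4974, 6240 and 6457 in control animals 1 to 4. Ccr9, the receptor of CCL25, gave 2177, 1727, 2509 and 2364 in knockout animals, against 2308, 2577, 2557 and 2323 in control animals. Both overlapped (0.14 and -0.17; limma, adjusted p = 0.548 and 0.480). The second row of Ccr9 was dim in both groups, with means of 47.5 in knockout and 55.8 in control muscle. It was above background on 1 of 24 arrays, so the rows of Ccr9 disagree in level. Cxcl13, the ligand of CXCR5, averaged 136 in knockout and 269 in control muscle (-0.98; limma, adjusted p = 0.0740), and control animal 4 stood at 557 while control animal 2, at 157, lay within the knockout range of 113 to 158. Ccl1, the ligand of CCR8, averaged 978 in knockout and 1418 in control muscle (-0.54; limma, adjusted p = 0.0568), with control animal 1 within the knockout range. Of the 35 genes above background in both groups, 23 differed by less than 1.2-fold.

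Neighbours on a chromosome had values of either sign. By gene order in RefSeq, 12 members lie on chromosome 11, 11 on chromosome 5 and 10 on chromosome 9. On chromosome 11 Ccl2, Ccl7 and Ccl11 follow each other with no gene between, and their log2 fold changes were 0.72, 0.34 and -0.67, with Ccl1 near them at -0.54. On the same chromosome Ccl5, Ccl9, Ccl6, Ccl3 and Ccl4 adjoin, with 0.63, -0.18, -0.09, 0.76 and 0.23. Of these 9 only Ccl11 and Ccl5 passed. Cx3cr1 adjoins Ccr8, which was dim in both groups.

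The spread among knockout animals was widest in Ccl3, a ligand of CCR1 made by macrophages. It gave 142, 104, 473 and 145 in knockout animals 1 to 4, against 114, 76.1, 113 and 125 in control animals 1 to 4. Knockout animal 3 alone lay far above the rest, and the SD was 0.96 among knockout and 0.32 among control animals (log2). Control muscle was dim as a group, and the knockout mean was 1.43-fold above the background level. The groups overlapped, and the difference did not pass (limma, adjusted p = 0.254). Without knockout animal 3 the log2 fold change was 0.29 in place of 0.76, so no least size of the difference is given. Ccl4, its neighbour and close relative, was also highest in knockout animal 3, at 277, against 172 to 214 in the other knockout animals and 161 to 195 in control animals.

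Of the 16 macrophage markers measured, 9 were highest of all 8 animals in the same knockout animal 3, and 2, Cd163 (582) and Fcgr1 (87.9), were lowest of all 8 there. Mrc1, a mannose receptor, was lowest of the knockout animals there (1904). The 3 genes described next were chosen after their values were seen. Trem2, a lipid receptor of macrophages, was 9672 in knockout animal 3, against 499 to 1493 in the other knockout animals and 388 to 522 in control animals. Cd68, a lysosomal protein of macrophages, was 10902 in knockout animal 3, against 946 to 2035 in the others and 998 to 1357 in control animals. Spp1, or osteopontin, reached 25023 there, against 1093 to 2956 in the other knockout animals and 1492 to 3820 in control animals. None of the 3 passed between the groups (limma, adjusted p = 0.111, 0.305 and 0.516). The part of these cells in the Ccl3 value was not tested.

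**Figure D4:**
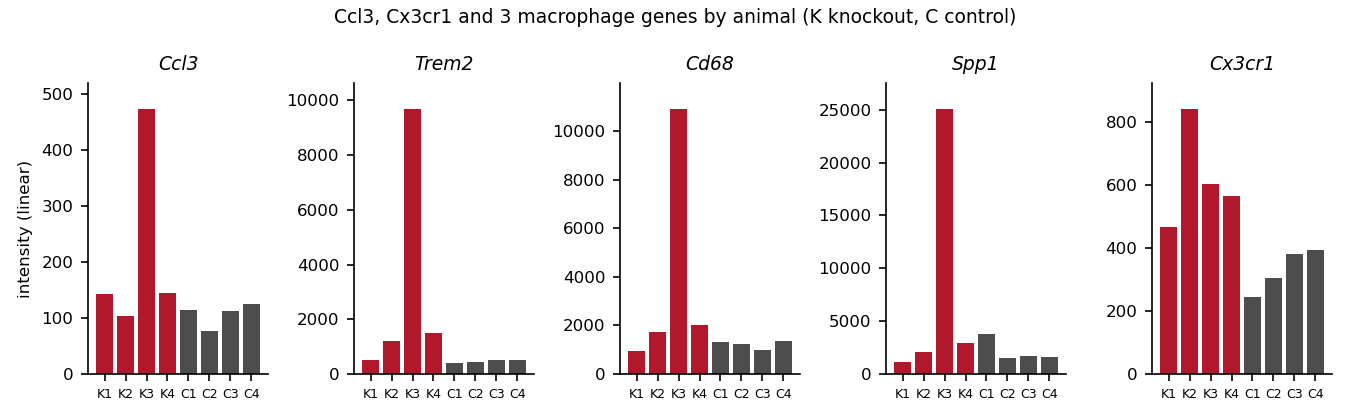
Linear intensity (vertical axes, bars from 0) of Ccl3, of the macrophage genes Trem2, Cd68 and Spp1 and of Cx3cr1 in knockout animals 1 to 4 (K1 to K4) and control animals 1 to 4 (C1 to C4). Ccl3 and the 3 macrophage genes peak in knockout animal 3, while Cx3cr1 is highest in knockout animal 2.

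By Pearson correlation over the 8 animal means, the genes most like Ccl3 among 14210 searched were Cdca7l, Ptprc, Stap1, Hvcn1 and Nek5, at 0.96 to 0.98. With knockout animal 3 far from the rest, such values turn on 1 animal. The genes most like the mean of the 32 members above background in every animal were Enpep, Hjurp, Pax5, A730013G03Rik and Olfr1353, at 0.93 to 0.96.

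Among members above background in at least 1 knockout animal, the next widest were Ccl9, Ccl7, Cxcl1, Ccl6 and Ccl11. Ccl28, below it in each knockout animal, had a knockout SD of 0.56. Ccl9, a ligand of CCR1, gave 99.7, 80.5, 160 and 121 in knockout animals, against 87.3, 120, 175 and 139 in control animals. Ccl7, a monocyte attractant, gave 218, 131, 134 and 219 in knockout animals, against 105, 109, 142 and 201 in control animals. Both spread about as widely in control animals, with SDs of 0.42 for each gene in knockout and 0.42 and 0.43 in control animals. Cxcl1, a neutrophil attractant, gave 275, 187, 140 and 180 in knockout animals, against 183, 162, 181 and 194 in control animals, with knockout animal 1 highest. Ccl6, another CCR1 ligand, gave 675, 604, 1134 and 699 in knockout animals, against 587, 778, 1052 and 859 in control animals, with knockout animal 3 highest.

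No member differed between the groups in its spread (limma on absolute deviations, adjusted p under 0.05), where 3 of 17742 genes did, or 0.0169%. At an unadjusted p under 0.05 there were 13 of 48 members (27.1%, against 15.7% of all genes). In 3 of them, Ccl11, Cxcl14 and Cxcl17, the knockout animals were wider. In the other 10 the control animals were wider, as in Ccl2, Cxcr4, Cxcr5, Ackr3 and Cxcl16, and 4 of the 10 were dim in both groups. That split of 3 against 10 changed with some settings and less with others. It was 5 against 4 under quantile normalization and without knockout animal 1, 3 against 4 without knockout animal 3, 5 against 5 without control animal 2 and 4 against 5 without control animal 4. With the floor at the background level it was 4 against 8, and with deviations from the group median 3 against 7. Without knockout animal 2 or 4 it was 5 against 8 and 4 against 9, and without control animal 1 or 3 it was 5 against 10 and 2 against 8. The low end of the scale by animal was 29.4 to 51.8 in knockout and 17.4 to 76.7 in control animals. Its part in the spread of dim genes was not tested.

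**Figure D5:**
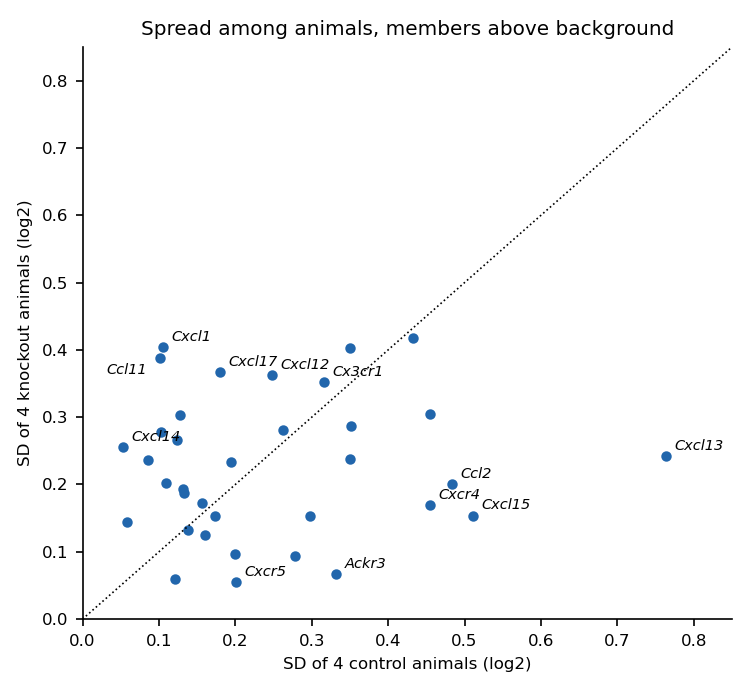
SD among the 4 knockout animals (vertical axis, log2) against SD among the 4 control animals (horizontal axis, log2) for the 35 members above background in both groups, with a dotted line at equal SD. Points lie on both sides of the line, 18 above it, with Ccl11 and Cxcl14 wider in knockout and Cxcl13 and Ccl2 wider in control animals.

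The SD was larger in knockout than in control animals for 21 of the 48 members (43.75%), against 45.0% of all genes. Among the 35 above background in both groups this held for 18 (51.4%), against 50.2% of all such genes. The median SD was 0.233 in knockout and 0.195 in control animals (log2), against 0.172 in both groups over all such genes. The technical part of this spread was not tested. In 30 of the 54 rows the SD between hybridisations of an animal was above that between animals of a group, with medians of 0.260 and 0.277 over rows. The first is an SD of single arrays and the second of means of 3 hybridisations, so they are unlike measures. No such count was taken over all rows.

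The other lists of the system are read against the 9.28% of all genes that passed. Of 12 other chemokines and atypical receptors measured, 1 passed, Ccrl2, a receptor that binds the attractant chemerin (log2 fold change -0.89; limma, adjusted p = 0.0175), and Ackr1, which takes up chemokines on venules, gave -0.62 (adjusted p = 0.0532). That list also holds Ackr3. Of 23 genes of receptor signalling, 2 passed as higher and 1 as lower. Grk3, a kinase that desensitises receptors, averaged 6012 in knockout and 2197 in control muscle (1.45; limma, adjusted p = 0.00021), Arrb2, a beta-arrestin, gave 0.52 and the G protein subunit Gng2 -0.66 (adjusted p = 0.0189 and 0.0149).

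Of 23 inflammatory inducers measured, 2 passed, both lower. They were Nfkbia, the inhibitor of NF-kB (log2 fold change -1.11; limma, adjusted p = 0.0213), and the interferon gamma receptor chain Ifngr1 (-0.49; adjusted p = 0.0279). Of 11 genes of chemokine processing, 1 passed, Timp1, an inhibitor of metalloproteinases. It gave 937, 2022, 2301 and 3710 in knockout animals 1 to 4, against 664, 424, 405 and 376 in control animals 1 to 4, and the groups did not overlap (2.14; limma, adjusted p = 0.00343). The remaining lists of cell types are short, and 5.01% of all genes passed as lower. None of 10 neutrophil, 4 platelet and 4 lymphatic endothelial markers passed (limma; 2, 1 and 0 at an unadjusted p under 0.05). One marker each was lower among natural killer cells (Eomes, of 5), dendritic cells (Itgax, of 8) and satellite cells (Calcr, of 6), and 2 of 4 Schwann cell markers (S100b and Mal) were lower.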

How the data were processed

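Linear intensity, as deposited, had the same median of 626.429 on all 24 arrays, so the authors' values were scaled. Scanner, background correction and scaling method are unknown here, and the labels name both Cy3 and Cy5. Values below the 5th percentile of all values, 38.8, were set to it, log2 was taken, and the mean of an animal's 3 hybridisations stood for it, so group means are means of log2 values. Old probe symbols were brought up to date through RefSeq names (18213 rows current, 2126 synonyms, 38 neither, 6046 without a symbol), and the brightest row stood for a gene. Differences are knockout minus control, fitted with limma 3.58.1 in R 4.3.3 (lmFit, eBayes) over 17742 genes and tested on simulated data. Spread was tested as absolute deviation from the group mean. With the animal as the replicate, how precise a group difference is depends on having only 4 animals per group. Nothing says that an animal number pairs animals, and hybridisations are technical.

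The genes named are those that passed, those whose groups did not overlap, the 6 brightest, the 6 of largest knockout SD among members above background in at least 1 knockout animal and the ligands and receptors of 4 axes. Other members are named with group means, and Ccl4, Ccl24 and Ccl1 in more detail after their values were seen. Members and lists were chosen with earlier results of these data known. Probes have no coordinates here. Alternatives were other normalizations, floors, filters, row rules, blocks, weights and the removal of each animal, hybridisation or the 2 arrays of highest low end.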

Additional observations from a re-analysis of the deposited data

Results flagged for a closer look

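Of 76 groups of 4 animals examined, 4 held 1 animal far from the other 3, about what chance gives, since it marks about 1 group in 20. Ccr7, a receptor of T cells and dendritic cells, stood at 247 in knockout animal 2, against 185 to 189 in the other knockout animals. Cxcl3 stood at 111 in knockout animal 2, against 129 to 132 in the other knockout animals. Cxcl11 was 231 in control animal 2, against 274 to 280 in the other control animals, and Ccl24 was 383 in control animal 1, against 445 to 457 in the other control animals.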

How the results depend on the processing

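Depth of signal limits these values, since 10 of the 48 genes were dim in both groups. The 28 alternatives called 0 to 11 members, beside 0.349% to 20.3% of all genes. Of all genes 14.5% passed under quantile normalization and 13.9% under cyclic loess, against 9.28% in the main fit. The share was 20.3% under array weights, and 17.7% and 16.8% in the fits with a random block. More members thus passed where more of all genes did. Counts are given as higher and lower in knockout muscle, against 3 and 1. They were 5 and 3 under quantile normalization (median of all genes -0.01, against -0.07), 5 and 4 under cyclic loess, and 1 and 1 with the floor at the background level. An added constant gave 4 and 4 (beside 11.6% of all genes), and so did a trend with robust variances (11.5%). A filter on dim genes gave 4 and 4 of 38 members, beside 13.3% of the 15259 genes left. Array weights gave 4 and 7, the animal series as a block 4 and 3 (10.8%), and removal of the 2 arrays of highest low end 4 and 3 (11.3%). Fitting single arrays under a random block for the animal gave 5 and 5, and with the hybridisation number as a replicate block 5 and 4. Those numbers pair nothing, since same-numbered arrays across groups correlated at a median of 0.04 and others at -0.02. The median of hybridisations gave 2 and 0 (beside 8.21% of all genes). Leaving out hybridisation 1, 2 or 3 gave 3 and 0 (7.91%), 1 and 0 (6.22%), and 2 and 2 (8.56%). The first series of animals alone gave 0 and 0, beside 0.349% of all genes (8 members at an unadjusted p under 0.05, limma), and the second 0 and 1 (2.86%). Leaving out 1 animal gave 0 to 2 higher and 0 to 2 lower, beside 5.33% to 9.54% of all genes.

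The 4 genes that passed kept their sign in all 28 alternatives, and Cx3cr1 passed in 24, Cxcl11 in 18, Ccl5 in 16 and Ccl11 in 15. Ccl11 missed the threshold under quantile normalization and cyclic loess (limma, adjusted p = 0.0505 and 0.0552). Cxcl12 and Cxcr5 passed in 12, Ccl2 in 10 and Cxcl14 in 5. Genes that never passed changed sign in log2 fold change as follows, and the cause was not tested. Without hybridisation 1, Cx3cl1 was 0.072 and Cxcl9 0.064, and under array weights 0.087 and 0.090. In the second series alone Cxcl1 was -0.24, Cx3cl1 0.17, Cxcl9 0.071 and Cxcr3 -0.15, and in the first Ccr2 was 0.027. The mean over rows gave Ccr2 0.12. Leaving out 1 animal gave -0.10 to 0.22 for Cxcl1, -0.29 to 0.042 for Ccl6, -0.059 to 0.27 for Cxcr4, -0.11 to 0.041 for Cx3cl1 and -0.19 to 0.0067 for Cxcl9. At 2 times the background level 24 control rows were above it in place of 40, and 26 knockout rows. With the floor at the background level 1 member differed in spread, against 659 of all genes.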
